A study of Schizosaccharomyces pombe with 8 samples.

Results

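The input DNA of a chromatin immunoprecipitation experiment was examined here as a measure of DNA copy along the genome of fission yeast, *Schizosaccharomyces pombe*. Input is sheared chromatin that was never incubated with antibody. It occupied the green channel of all 8 arrays of the series, and all 8 were used: 4 arrays of +N cells and 4 of −N cells. All samples were diploid cells of strain PN2159, which carries the temperature-sensitive *pat1-114* allele on both homologues, with *ade6-M210* and *ade6-M216*, in both conditions, so that a shift to 34 °C drives the cells into synchronous meiosis. The −N cells had been starved of nitrogen and re-fed before the shift and were taken 2 h after it. The +N cells had been kept in nitrogen-rich medium, arrested with the mating pheromone M-factor, released, and taken 30 min after the shift. Both samplings were placed at the start of premeiotic S phase. Nitrogen history, pheromone treatment and time at 34 °C cannot be told apart in this comparison. Each condition had 2 replicates, and each replicate had 1 array hybridized for histone H3 and 1 for H3 trimethylated at lysine 4 (H3K4Me3). The labels do not say whether these 2 arrays received the same input preparation, so they were averaged and counted as 1 input, which left 2 +N inputs against 2 −N inputs. The study calls its replicates biological, and the labels do not say more about their origin. All arrays of replicate 1 lay on 1 slide and all arrays of replicate 2 on another, so replicate and slide cannot be told apart.

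During S phase a replicated stretch of a chromosome is present in more copies than an unreplicated one. The input of a synchronous culture can therefore follow the order of replication. Whether the input differences described below reflect replication was not tested. In growing fission yeast, centromeres and the silent mating-type region are known to replicate early and the regions next to telomeres late. Mitochondrial DNA is present in many copies per cell and replicates independently of the cell cycle. It is not wrapped around histones, and immunoprecipitation with histone antibodies depletes it.

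Signals are given as log2 of the green processed signal minus the median of all nuclear probes of the same array, so that a difference of 1 is a 2-fold difference. The hybridization strength of a probe is part of its level. Levels are therefore compared between arrays and not between probes. Of 42641 nuclear and 66 mitochondrial probes, 37626 and 48 remained after those marked as an outlier in green on any array were removed. Between 97.1% and 99.6% of nuclear probes were well above background, and the number of outlier marks per array ranged from 44 to 2896. No 2 arrays shared the value of more than 1 probe. The mitochondrial probes lay 2.79 to 4.30 higher in green than in red on all 8 arrays. The green channel thus held the DNA that had not been depleted of mitochondrial sequence on each of them, as the labels state. A DNA measurement cannot check the labelled cell state further.

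Mitochondrial DNA took a larger share of the input in +N than in −N cells in each of the 4 within-replicate pairs. In replicate 1, the mean level of the 48 mitochondrial probes was 3.54 on the H3 array and 3.60 on the H3K4Me3 array of −N cells, against 4.09 and 4.04 for +N cells. In replicate 2, the levels were 2.95 and 2.86 for −N cells, against 3.54 and 3.59 for +N cells. Arrays of the same replicate and condition were close to each other, and both −N levels of replicate 1 were about as high as both +N levels of replicate 2, so the conditions overlapped across slides. The 4 differences were 0.55, 0.45, 0.59 and 0.73, or 1.36- to 1.65-fold. Averaged over the 2 inputs of each condition, the level reached 3.82 ± 0.36 for +N and 3.24 ± 0.47 for −N (SD, n = 2 inputs). The difference was 0.58, or 1.49-fold (two-sided exact permutation test, p = 0.667). With 2 inputs against 2, this test cannot give a p below 0.333. The p of 0.667 rested on −N replicate 1, at 3.567, lying just above +N replicate 2, at 3.565. It was 0.333 with background subtraction, normexp, flagged probes kept, dim or saturated probes left out, mean centring or H3 arrays only. It stayed at 0.667 without multi-copy probes and with H3K4Me3 arrays only. The test therefore cannot decide whether the conditions differ. Leaving out 1 input moved the difference from 0.25, without −N replicate 2, to 0.91, without −N replicate 1. Within slides it was 0.50 on slide 1 and 0.66 on slide 2, and a sign permutation over these 2 pairs gave an exact p = 0.5, the smallest it can give. Between slides, replicate 1 exceeded replicate 2 by 0.66 in −N cells and by 0.50 in +N cells.

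**Figure D1:**
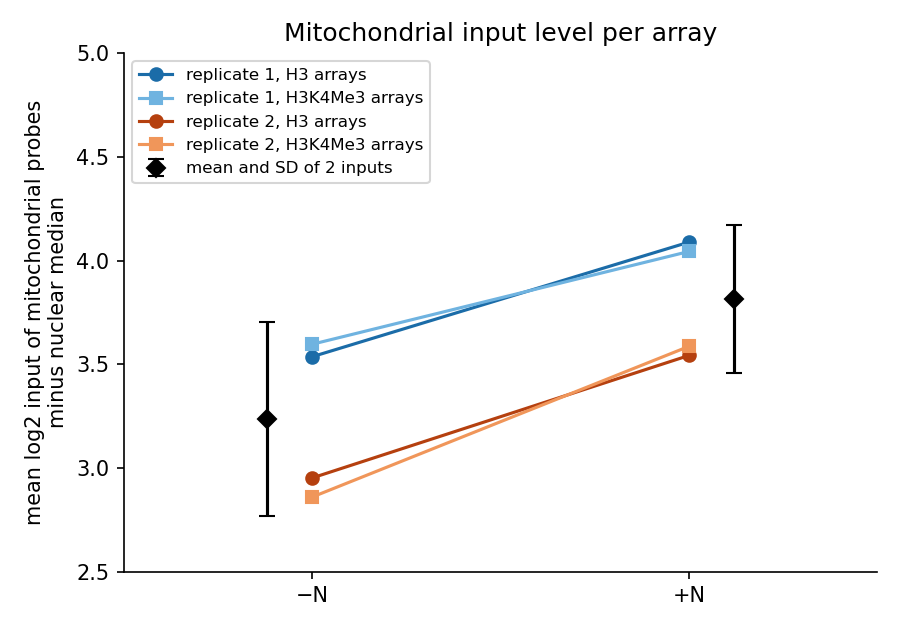
Mean log2 input of the 48 mitochondrial probes minus the nuclear median (y axis) for −N and +N cells (x axis), with a line joining the 2 arrays of each replicate and antibody, and black diamonds with bars for the mean and SD of 2 averaged inputs. All 4 lines go up, by 0.45 to 0.73, while replicate 1 lies above replicate 2 in both conditions.

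Single probes showed the same direction in most cases. Of the 48 probes, 42 and 40 were higher in +N on the H3 and H3K4Me3 arrays of replicate 1, 43 and 45 in replicate 2, and 36 in all 4 pairs. Saturation was counted over all 66 mitochondrial probes, before outliers were removed. On slide 1, 4 and 3 were saturated on the H3 and H3K4Me3 arrays of −N cells. For +N cells 11 and 9 were, and none was on slide 2. Over the 38 of the 48 probes that were neither saturated nor dim on any array, the 4 differences were 0.69, 0.52, 0.67 and 0.77. The brightest 1% of nuclear probes, 377 in number, differed by −0.48 and −0.33 in replicate 1 and by 0.04 and −0.02 in replicate 2. Their mean level was 3.06, against 3.53 for the mitochondrial probes, so the 2 sets were not matched in brightness. The shift in replicate 1 shows that the scale of bright probes differed between arrays. The part of probe brightness in the mitochondrial difference was not tested.

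The mitochondrial genome encodes subunits of the respiratory chain, of ATP synthase and the RNAs of its own ribosome, and 18 of its annotated genes and open reading frames held 43 of the probes. In 16 of the 18 all 4 differences were positive. Positions are given in the mitochondrial record of the reference assembly ASM294v3, which the probe coordinates matched best with a shift of 3 bp. The large ribosomal RNA gene *rnl* (positions 1 to 2823, 6 probes) was at 2.95 and 2.90 on the −N arrays of replicate 1 and at 2.10 and 1.85 on those of replicate 2. It was at 3.51 and 3.47 on the +N arrays of replicate 1 and at 2.71 and 2.59 on those of replicate 2. Its differences of 0.56, 0.56, 0.61 and 0.73 were the most even of the genes with several probes. The small ribosomal RNA gene *rns* (3132 to 4552, 2 probes) had the highest mean difference, 0.96, with a mean of 0.77 over the pairs of replicate 1 and of 1.16 over those of replicate 2. Among the genes of the respiratory chain, *cob*, which encodes cytochrome b (10175 to 13864, 12 probes), differed by 0.68, 0.44, 0.68 and 0.78. The cytochrome oxidase genes *cox1*, *cox3* and *cox2* (8, 3 and 2 probes) had mean differences of 0.54, 0.58 and 0.38, with 2, 2 and 1 of these probes saturated or dim on some array. For the ATP synthase gene *atp6* (14758 to 15531, 2 probes) the mean difference was 0.81, and for *rps3*, which encodes a ribosomal protein, it was 0.38 on 1 probe. The probes within the intron-encoded frames *cox1-I1b*, *cox1-I2b* and *cob-I1* are also counted in their host genes. The 2 exceptions rested on 1 saturated or dim probe each: *trnI(gau)* was lower in both pairs of replicate 1 (−0.24 and −0.18), and *atp9* was lower in both pairs of H3 arrays (−0.26 and −0.28).

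**Figure D2:**
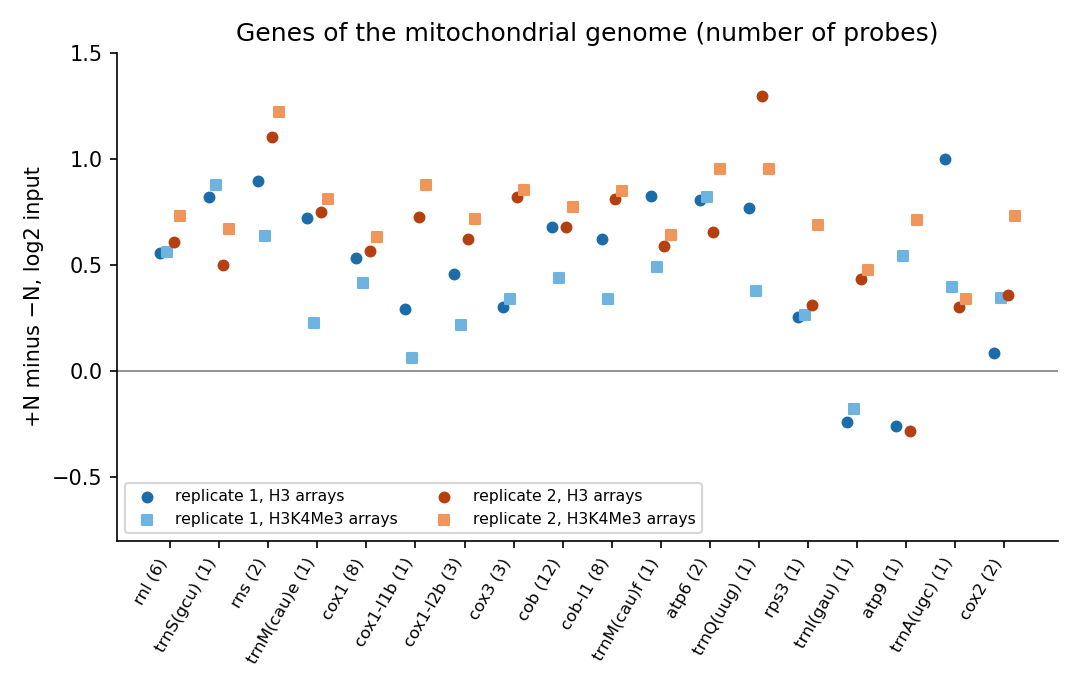
The +N minus −N difference in log2 input (y axis) for the 18 mitochondrial genes and frames in the order of the genome (x axis, number of probes in parentheses), with 1 point for each replicate and antibody. Points lie above 0 in all 4 pairs for 16 of the 18, and *trnI(gau)* and *atp9* are the exceptions.

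The nuclear genome was described next by distance from the chromosome ends. The inputs of +N replicate 2 stood apart from the other 3 inputs, with a higher signal near all 6 chromosome ends. Within 50 kb of an end (330 probes), the mean level was −0.39 and −0.32 on the −N arrays of replicate 1 and −0.46 and −0.34 on those of replicate 2. It was −0.39 and −0.20 on the +N arrays of replicate 1, but 1.09 and 1.30 on the +N arrays of replicate 2. The latter 2 arrays lay above all 6 others, which overlapped. Within 50 kb of an end, +N thus exceeded −N by −0.00 and 0.11 in replicate 1 and 1.54 and 1.64 in replicate 2. In replicate 2 it declined with distance, to 1.15 and 1.17 at 50 to 100 kb (878 probes), to 0.49 and 0.47 at 100 to 200 kb (1849 probes), to 0.07 and 0.06 at 200 to 500 kb and to −0.05 and −0.07 beyond 500 kb. In replicate 1 the same 4 classes lay between −0.06 and 0.02. In steps of 10 kb, the difference of replicate 2 was highest at 10 to 20 kb from the end, where it was 1.82 or 3.54-fold on 12 probes. It first fell below 50% of this log2 value at 90 to 100 kb and below 0.1 at 300 to 310 kb. The steps of replicate 1 ranged from −0.12 to 0.08 over 500 kb. Distances were taken from the ends of ASM294v3, and those on the right arm of chromosome I are uncertain by about 6 kb because the probe positions there are offset from that assembly.

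**Figure D3:**
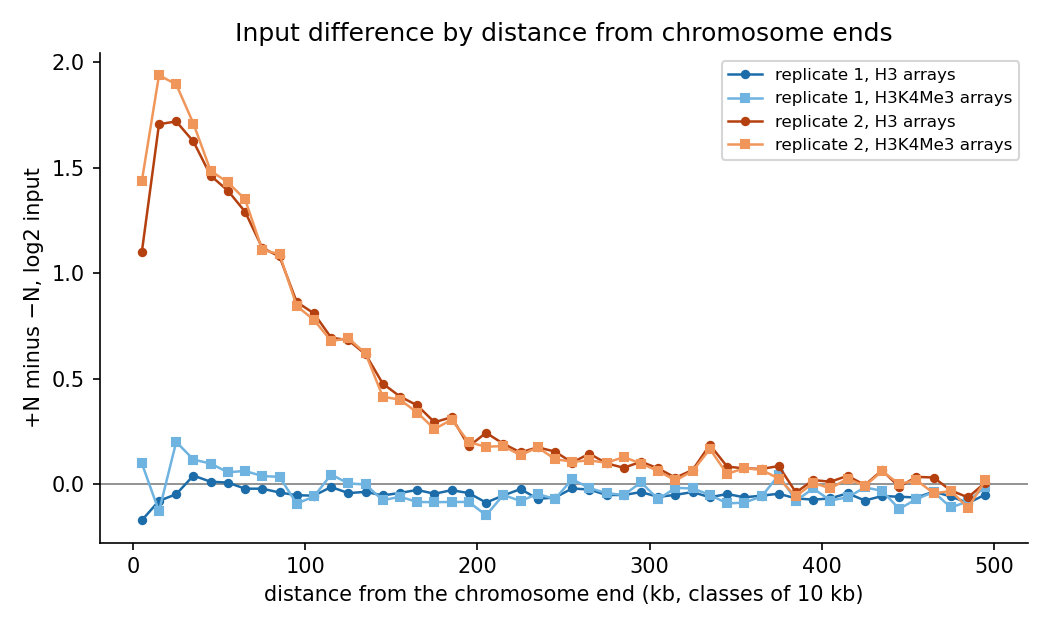
The +N minus −N difference in log2 input (y axis) against distance from the nearer chromosome end in classes of 10 kb (x axis), averaged over the probes of all 6 ends, with 1 line for each replicate and antibody. Both lines of replicate 2 decline from 1.94 and 1.71 at 10 to 20 kb to 0.19 or less beyond 300 kb, and both lines of replicate 1 stay close to 0.

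The mean of probes within 200 kb of an end minus that of all other nuclear probes came to 0.46 ± 0.58 for +N and 0.03 ± 0.01 for −N (SD, n = 2 inputs). The difference of 0.43 was carried by +N replicate 2: it was 0.03 within replicate 1 and 0.83 within replicate 2, and 0.02 without +N replicate 2. It was smaller than the SD of 0.58 between the +N inputs. Both +N inputs, at 0.054 and 0.873, lay above both −N inputs, at 0.023 and 0.042. The two-sided exact permutation test gave p = 0.333, the smallest this design allows, so it cannot decide whether the conditions differ. The ChIP DNA on the same arrays had the same gradient. In the red channel, the +N minus −N difference within 50 kb of an end was 1.63 for H3 and 1.40 for H3K4Me3 in replicate 2, against −0.11 and 0.30 in replicate 1. The 2 arrays of +N replicate 2 had 416 and 2896 nuclear probes marked as outliers in green, fewer and more than the 2 −N arrays of the slide with 1449 and 2272. The excess lay next to the chromosome ends and, as described below, also at the centromeres. The part of DNA copy, culture, preparation or hybridization in this difference was not tested.

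Each of the 6 ends showed it. Within 50 kb, the difference of replicate 2 on the H3 and H3K4Me3 arrays was 1.30 and 1.57 at the left end of chromosome I (38 probes) and 1.64 and 1.84 at its right end (70 probes). It was 1.64 and 1.76 at the left end of chromosome II (68 probes) and 1.82 and 1.80 at its right end, where only 7 probes lay within 50 kb. On chromosome III, whose ends carry the ribosomal DNA repeats outside the region covered, it was 1.66 and 1.64 on the left (58 probes) and 1.40 and 1.40 on the right (89 probes). In replicate 1 the 12 values ranged from −0.11 to 0.17. The end-most bins of 20 kb show the values behind these means. On chromosome III from 20001 to 40000 (27 probes), the −N arrays were at −0.93 and −0.86 in replicate 1 and at −1.12 and −0.92 in replicate 2, and the +N arrays of replicate 1 were at −0.87 and −0.62. Both +N arrays of replicate 2 were at 0.80 and 0.96, above all others. On chromosome II from 20001 to 40000 (33 probes), the 6 other arrays ranged from −0.79 to −0.60, and those of +N replicate 2 were at 0.93 and 1.19.

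Of the 4285 genes with at least 1 probe, 309 lay within 200 kb of an end. None lay near the right end of chromosome I, where genes were not assigned. Of the 309, 291 were higher in +N on both arrays of replicate 2, and 55 on both arrays of replicate 1. The share of all genes higher on both arrays is not given for comparison. The median over all 4285 genes was −0.01 in replicate 2 and −0.06 in replicate 1. A difference above 0.5 on both arrays was seen for 105 of 116 genes within 100 kb of an end in replicate 2 and for 0 of 116 in replicate 1. Over the whole genome 188 genes reached it in replicate 2 and 0 in replicate 1, with no test on either count. The 10 genes with the largest mean increase among those with at least 3 probes and 4 differences of the same sign all lay within 70 kb of an end. They included *ght7*, a member of the hexose transporter family (chromosome II, 38514 to 40143), with 0.29 and 0.08 in replicate 1 and 1.64 and 1.75 in replicate 2. The galactokinase gene *gal1* at the other end of chromosome II (4488298 to 4490271) differed by 0.01, 0.12, 1.68 and 1.61 in the same order. *rrp45*, which encodes a subunit of the RNA exosome (chromosome III, 62814 to 64464), had 0.14 and 0.54 in replicate 1 and 1.66 and 1.40 in replicate 2. The remaining genes were *fah1*, *cmt2*, *grt1*, SPCP20C8.02C, SPCC1884.01, SPAC212.04C and SPAC212.07C, with mean differences between 0.83 and 1.05. None of the 10 passed the test across genes (limma, adjusted p = 0.9997 for each), in which the spread between the +N replicates counts as error. Their mean differences within replicate 1 lay between 0.06 and 0.34. These had to be positive, since the genes were chosen for 4 differences of the same sign.

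Centromeres were covered by few probes and were taken as the longest stretch of each chromosome without a protein-coding gene, since the annotation used holds no centromere features. These stretches were 39.2 kb on chromosome I (3751730 to 3790923), 51.5 kb on chromosome II (1596745 to 1648231) and 78.2 kb on chromosome III (1064444 to 1142615). On chromosome I the probe positions in this stretch are offset by about 6 kb from the assembly, so its borders are uncertain by that much. The input of +N replicate 2 was again higher there. Within the 3 stretches (84 probes), the +N minus −N difference was 0.03 and 0.03 in replicate 1 and 0.91 and 0.98 in replicate 2. In replicate 2 it was 0.43 and 0.38 up to 25 kb outside them, 0.21 and 0.19 at 25 to 50 kb, 0.03 and −0.01 at 50 to 100 kb, and −0.03 and −0.07 at 100 to 200 kb. The elevated region thus reached less far than at the chromosome ends. By chromosome, the stretches differed by 0.67 and 0.71 on chromosome I (23 probes), 1.11 and 1.14 on chromosome II (36 probes) and 0.83 and 0.99 on chromosome III (25 probes). In replicate 1 these 6 values ranged from −0.09 to 0.09.

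**Figure D4:**
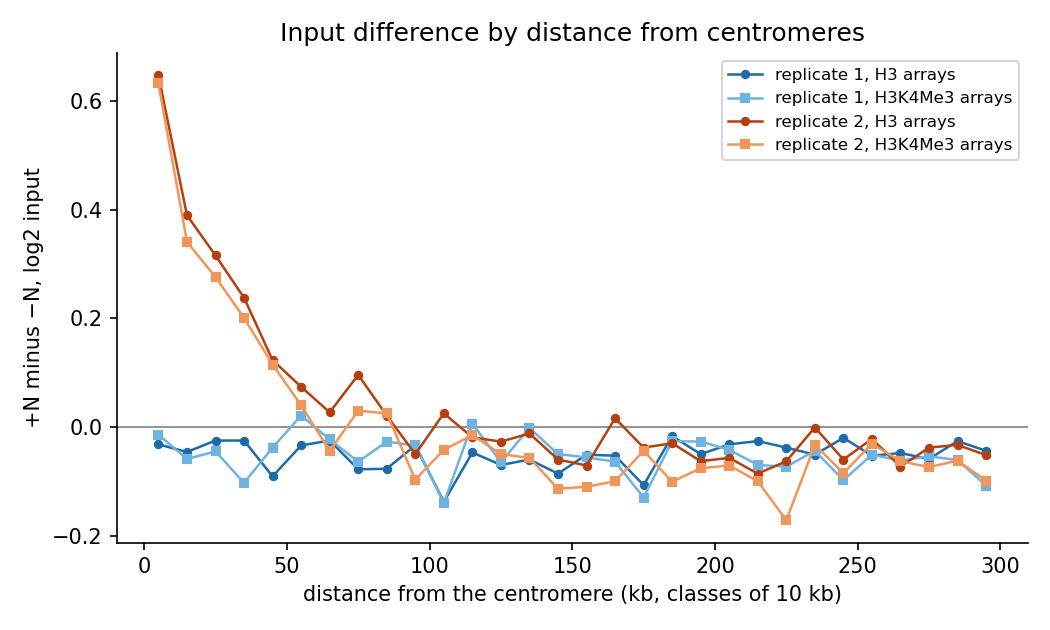
The +N minus −N difference in log2 input (y axis) against distance from the centromere stretch in classes of 10 kb (x axis; probes inside the stretch fall in the first class, and probes within 300 kb of a chromosome end are left out), with 1 line for each replicate and antibody. Both lines of replicate 2 decline to under 0.1 beyond 50 kb, and both lines of replicate 1 stay below 0.03.

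The bin from 1620001 to 1640000 of chromosome II (24 probes), inside the centromere stretch, was at −0.30 and −0.33 on the −N arrays of replicate 1 and at −0.61 and −0.61 on those of replicate 2. It was at −0.23 and −0.34 on the +N arrays of replicate 1 and at 0.76 and 0.77 on those of replicate 2. Only the last 2 stood apart. Among genes beside the centromeres, *cmc2* (chromosome III, 2 probes) differed by −0.03 and 0.16 in replicate 1 and by 1.17 and 1.02 in replicate 2. *mid1*, which positions the division ring (chromosome III, 12 probes), differed by −0.10 and −0.07 in replicate 1 and by 0.79 and 0.74 in replicate 2. The lysine biosynthesis gene *lys1* (chromosome I, 14 probes) had −0.04 and 0.20 in replicate 1 and 0.64 and 0.87 in replicate 2. The mean of probes within 50 kb of a centromere minus all others came to 0.22 ± 0.24 for +N and 0.06 ± 0.00 for −N (SD, n = 2 inputs). The difference of 0.17 was 0.00 within replicate 1 and 0.33 within replicate 2, and was smaller than the SD of 0.24 between the +N inputs. The two-sided exact permutation test gave p = 0.667, and with 2 inputs against 2 it cannot give a p below 0.333. Without +N replicate 2 the difference was 0.00.

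The bin that holds the silent mating-type region of chromosome II (2120001 to 2140000, 45 probes) differed by 0.24 and 0.30 in replicate 2 and by 0.06 and −0.02 in replicate 1. This bin was chosen for its position after its values were seen. The neighbouring bins ranged from −0.08 to 0.02 in replicate 2. In the interaction test described next, its difference was 0.25 ± 0.06 larger in replicate 2 (SE, limma adjusted p = 0.007035).

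Whether the +N minus −N difference depended on the replicate was tested in 617 bins of 20 kb with at least 20 probes each, by limma with an interaction of condition and replicate over the 8 arrays. The 2 replicates differed in 127 bins, or 20.6% of those tested (Benjamini-Hochberg adjusted p under 0.05), with 111 higher and 16 lower in replicate 2. After quantile normalization the split was more even, with 82 higher and 61 lower among 143 bins. The error in this test is the difference between the H3 and H3K4Me3 arrays, which is a spread between hybridizations only if those arrays shared an input. All 53 bins within 200 kb of a chromosome end passed, each higher in replicate 2, and 16 of 19 bins within 50 kb of a centromere passed, again all higher. Elsewhere 58 of 545 bins passed (10.6%), 42 higher and 16 lower. In the bins near ends, the difference of replicate 2 ranged from 0.16 to 1.89 with a median of 0.76, and that of replicate 1 from −0.14 to 0.15 with a median of −0.03. In the bins elsewhere the medians were −0.06 in replicate 2 and −0.05 in replicate 1.

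**Figure D5:**
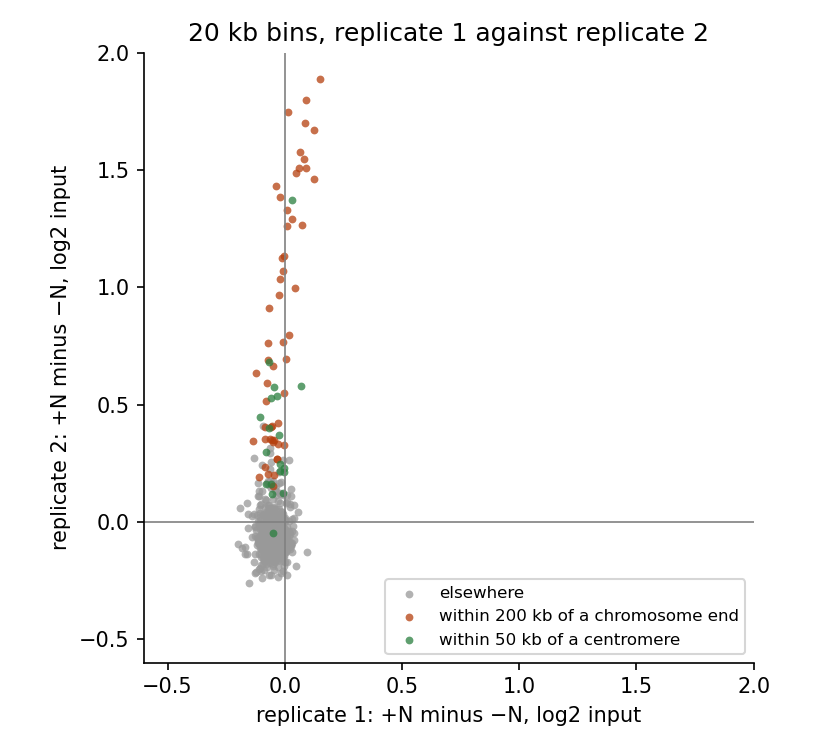
The +N minus −N difference in log2 input of replicate 2 (y axis) against that of replicate 1 (x axis) for 617 bins of 20 kb, each the mean of the H3 and H3K4Me3 array pairs, coloured by position. Bins near chromosome ends and centromeres extend upward to 1.89 in replicate 2 but stay between −0.14 and 0.15 in replicate 1.

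Bins outside these zones that differed most between replicates lay mostly next to the end zones. The largest was on chromosome III from 2240001 to 2260000 (71 probes), with 0.41 in replicate 2 and −0.09 in replicate 1, a difference of 0.50 ± 0.07 (SE, limma adjusted p = 0.000162). The largest in the opposite direction was on chromosome I from 4620001 to 4640000 (64 probes), with −0.19 in replicate 2 and 0.05 in replicate 1, a difference of −0.24 ± 0.06 (SE, limma adjusted p = 0.02098). When the 502 bins more than 300 kb from an end and more than 100 kb from a centromere were tested alone, 15 differed between replicates, or 2.99%.

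In these interior parts the inputs were close to each other. Over 501 interior bins the SD of the +N minus −N difference was 0.041 and 0.063 in replicate 1 and 0.078 and 0.079 in replicate 2. Between the H3 and H3K4Me3 arrays of 1 replicate and condition it was 0.045 to 0.061, and between replicates of 1 condition it was 0.075 to 0.102. The ranges for conditions and for replicates overlapped. Over all 617 bins the SD was 0.042 and 0.070 in replicate 1 but 0.313 and 0.329 in replicate 2. Both array pairs of replicate 2 shared their interior pattern (r = 0.822 across 501 bins) to a greater degree than those of replicate 1 (r = 0.226). Between replicates, r was 0.005 to 0.061. These correlations are across neighbouring bins of the same arrays, which are not independent, and are given as a description.

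In the main comparison of +N with −N, no difference in copy was called in windows of 5 probes, bins of 20 kb or genes. With 2 inputs in each condition, limma called 0 of 37614 windows of 5 probes (0.0%; 108 at an unadjusted p under 0.05), 0 of 617 bins of 20 kb (0.0%; 11 unadjusted) and 0 of 4285 genes (0.0%; 23 unadjusted). In bins of 50 kb, 8 of 250 were called (3.2%), all higher in +N. The absence of calls at the other scales is not evidence of equal copy, since the error of each bin near an end includes the difference between the +N replicates. Without +N replicate 1, so that the single remaining +N input was assumed to vary as the −N inputs did, 1310 windows (3.48%), 43 bins (6.97%) and 36 genes (0.84%) passed, and all 43 bins and 36 genes were higher in +N. Without +N replicate 2 limma called 0 at each scale (55 windows, 0 bins and 10 genes at an unadjusted p under 0.05). All 4 differences within replicate and antibody were positive in 16 bins (2.59%) and negative in 280 (45.4%). The 5 bins with the largest increase among the 16 were end bins of the 3 chromosomes, with mean differences of 0.82 to 1.02, and the 5 with the largest decrease lay in chromosome interiors, with −0.16 to −0.21. After centring on the median probe, the median bin differed by −0.05.

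Genes with the largest decrease had 3 to 6 probes and small differences. The largest was that of *nam9* (mean −0.48), which rested on the H3K4Me3 arrays with −0.74 and −1.12, while both H3 pairs were at −0.04. Next came *cut2*, which encodes securin, the inhibitor of sister chromatid separation (chromosome II, 2203000 to 2204216, mean −0.47). For *cut2* the differences were −0.27 and −0.34 in replicate 1 and −0.81 and −0.47 in replicate 2. The cytochrome c gene *cyc1* (chromosome III, 4 probes) differed by −0.27, −0.41, −0.43 and −0.58 in the same order, and *swi5*, a recombination gene, by −0.22, −0.08, −0.31 and −0.93. The other 6 were *mug116*, *mug153*, SPBC16E9.20, SPBP4H10.19C, SPCC191.01 and SPAC343.21, with means between −0.46 and −0.37. None passed the limma test (adjusted p = 0.9997 for each). Among all 4285 genes, 200 (4.67%) were higher and 823 (19.2%) were lower in all 4 pairs.

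Lists of genes that change expression with nitrogen, heat or meiosis were examined for unequal copy, against a median over all 4285 genes of −0.06 in replicate 1 and −0.01 in replicate 2. No member of any list passed the limma test, and 2 genes, both of ribosomal proteins, had an unadjusted p under 0.05. The median of 12 glycolytic genes was −0.12 in replicate 1 and −0.04 in replicate 2, and 6 of the 12 were lower and 0 higher in all 4 pairs, against 19.2% and 4.67% of all genes. The median of 11 genes of the nitrogen starvation response was −0.13 and −0.04. For 7 heat shock genes it was −0.10 and 0.00, for 8 core histone genes −0.13 and 0.05, and for 14 genes of early meiotic recombination −0.06 and −0.04. The 110 genes of cytosolic ribosomal proteins had medians of −0.17 and −0.04, with 28 lower and 2 higher in all 4 pairs. These counts were not tested, and no other list had more than 2 members with 4 equal signs in 1 direction. For 14 *wtf* genes, a family of meiotic drivers, the medians were −0.01 and −0.02. The 8 loci of histone changes in an earlier analysis of these data had −0.02 and 0.10. None of the 13 *Tf2* retrotransposons had a usable probe. Of 2 genes beside known origins of replication, *hus5* (chromosome I) differed by 0.01 in replicate 1 and 0.04 in replicate 2. *ura4*, the uracil biosynthesis gene, lies 116.1 kb from an end of chromosome III and differed by −0.13 in replicate 1 and 0.70 in replicate 2. At the loci mutated in the strain, the values were −0.04 and 0.27 for *pat1*, which lies within 50 kb of the centromere of chromosome II, and −0.02 and −0.08 for *ade6*. Of the recombination genes, *rec6* is the nearest to a centromere and had the highest value in replicate 2, 0.61, against 0.07 in replicate 1.

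Chromosome III, the shortest of the 3, exceeded chromosomes I and II by 0.05 ± 0.10 for +N and by −0.01 ± 0.01 for −N (SD, n = 2 inputs). The conditions differed by 0.055, with −0.01 within replicate 1 and 0.12 within replicate 2 (two-sided exact permutation test, p = 1.0). More of its probes lie near ends or the centromere: 4992 of 7340 were interior, against 14511 of 16794 on chromosome I and 11319 of 13492 on chromosome II. In the interior the difference was 0.00 and −0.03 in replicate 2, against −0.06 and −0.08 in the interior of chromosomes I and II. In replicate 1 it was −0.06 and −0.06, against −0.05 and −0.05 for both others. The part of probe position in the chromosome III difference was not tested.

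Origins of replication in this organism lie in AT-rich sequence between genes. Input at 4261 probes within 500 bp upstream of protein-coding genes and outside genes was compared with that at 25152 probes inside genes. The difference between these classes came to −0.08 ± 0.16 for +N and −0.02 ± 0.04 for −N (SD, n = 2 inputs). Between conditions this differed by −0.055, with 0.03 within replicate 1 and −0.14 within replicate 2 (two-sided exact permutation test, p = 1.0). Base composition moved with it. In the interior of the chromosomes, the 9224 probes in the most AT-rich sequence (median GC 30.8% in 200 bp) differed by −0.18 and −0.18 in replicate 2 and by −0.02 and 0.02 in replicate 1. The 8090 probes with the highest GC (median 41.8%) differed by 0.07 and 0.03 in replicate 2 and by −0.10 and −0.12 in replicate 1. Within 100 kb of an end the median GC was 34.3% and the difference of replicate 2 was 1.22 and 1.23. The part of base composition in either result was not tested.

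Local maxima of the +N over −N ratio were counted as candidate sites of higher copy, as a window of 5 probes with a ratio of at least 1.1 that exceeded the 8 windows on each side. In the mean of all 4 pairs there were 676 such maxima, of which 153 lay within 200 kb of a chromosome end. Of the 37626 nuclear probes used, 3057 lay within that distance. The same rule applied to −N over +N gave 1342, with 10 near the ends. By pair, the +N maxima numbered 666 and 1309 on the H3 and H3K4Me3 arrays of replicate 1, and 1481 and 1453 in replicate 2. Of these, 68 and 114 lay within 200 kb of an end in replicate 1, and 161 and 165 in replicate 2. For −N over +N the counts there were 107 and 121 in replicate 1 and 11 and 12 in replicate 2. The +N maxima recurred between replicates about as often as the windows they could fall in. Of 666 maxima of the H3 pair in replicate 1, 59.2% had a maximum of the H3 pair in replicate 2 within 8 windows, while 61.1% of all windows lay that close to one. Conversely 28.8% of the 1481 were matched by the smaller set of 666, and no share of windows is given for this direction. Inside replicate 2, 76.2% of the H3 maxima were matched by the H3K4Me3 pair, against 59.9% of windows. The other way 77.9% were matched, against 61.1% of windows. The counts carry no test, and most maxima were small, with a median log2 ratio of 0.20 in the mean.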

How the data were processed

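Intensity values were deposited by the authors as Agilent Feature Extraction 10.7.3.1 output for 2-colour arrays with 45220 spots. Per the file headers, the processed signal had been background-subtracted, detrended over the array and scaled between dyes. Green processed signals were taken as log2 and centred on the nuclear median. The other column types used were the deposited flags for outliers, saturation and background. The genome build is not given in the sources used here: positions matched ASM294v3 in 44 of 52 segments of 250 kb, by correlation of probe length with GC content, and genes were assigned there only (85.8% of nuclear probes). The 8 segments of chromosome I from position 3750001 on were used without annotation. Input arrays were averaged by replicate and condition and tested with limma 3.58.1 in R 4.3.3 (lmFit, eBayes, two-sided, Benjamini-Hochberg, threshold 0.05), tested on simulated data first. Single values used two-sided exact permutation tests over 2 against 2 inputs. Array number, not depth, limits precision. Named genes were the 10 largest changes each way among genes with at least 3 probes and 4 equal signs, the 5 such bins each way, the genes of the lists and all mitochondrial genes. The members, lists and tests were chosen with earlier results of these data known. Alternatives changed the signal (background-subtracted, or normexp with offset 50 on the median signal, as the mean was not among the columns), flags, dim, saturated or multi-copy probes, normalization, arrays, inputs, bin size, block and peak rule. The deposited table of log2 ratios was not used.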

Additional observations from a re-analysis of the deposited data

Results flagged for a closer look

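Replicates 1 and 2 differed in their +N minus −N difference in 127 bins of 20 kb (interaction test in limma), 53 of them within 200 kb of a chromosome end. For chromosome III the difference was 0.12 in replicate 2 and of the opposite sign, −0.01, in replicate 1, and for probes upstream of genes it was −0.14 in replicate 2 and 0.03 in replicate 1. These last 2 differences between replicates were not tested. The red channel, which holds the ChIP DNA and was outside the input comparison, carried the excess near chromosome ends in replicate 2: within 50 kb the +N minus −N difference was 1.63 on the H3 arrays and 1.40 on the H3K4Me3 arrays, against −0.11 and 0.30 in replicate 1.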

How the results depend on the processing

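Of 160 alternative values, 143 were counted as kept. A count was kept if it stayed within a fixed fold of the main count, or at 0 where that was 0. Single values were kept if their direction and call stayed. For values within 1 replicate, the same direction was required, and a distance from the main value within the SD of the +N inputs. For single values over 2 against 2 inputs, p cannot fall below 0.333, so their call could not change. The value for chromosome ends counts as kept, although it was 0.431 in the main setting and 0.021 without +N replicate 2. The count of +N maxima also counts as kept at 1007 with flagged probes, against 676. The count of 143 is therefore not a measure of how stable the sizes were. Leaving out each input in turn gave 0 to 1310 windows, 0 to 43 bins and 0 to 36 genes called, with all calls in the fit without +N replicate 1. It gave −0.016 to 0.125 for chromosome III, −0.168 to 0.059 for upstream probes and 839 to 1658 +N maxima (1453 without +N replicate 2, 1658 without −N replicate 1). It gave 0.25 to 0.91 for mitochondrial probes and 0.02 to 0.84 for chromosome ends. With normexp, 6 bins and 329 maxima were found, and the median gene differed by −0.15, against −0.035 in the main fit. Bins of 50 kb gave 8 calls, all higher in +N. The interaction was called in 84 bins with the background-subtracted signal, and in 143 bins, 82 higher and 61 lower, after quantile normalization. Means of 25 probes gave 120 maxima and a ratio of at least 1.2 gave 212. Among alternatives chosen after seeing the data, interior probes alone gave 15 interaction bins and 387 maxima, and within replicate 1 the chromosome III and upstream values were −0.011 and 0.033. The cause of these changes was not tested. With a replicate block no window, bin or gene was called, and the sign permutation over 2 pairs gave p = 0.5 for mitochondrial probes, the smallest it can give. Replicate deviations of +N and −N inputs correlated at 0.276 over 617 bins (0.529 over 501 interior bins), and the number coincides with the slide, although the labels do not state pairs. With the 8 arrays as separate samples, the two-sided exact permutation test for mitochondrial probes gave p = 0.114. All 20 named genes kept their sign under 7 other ways of making the values.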
